A study of Mus musculus with 9 samples.

Results

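The oxidative phosphorylation subunits are the nuclear genes for complexes I to V of the mitochondrial inner membrane. They were taken by symbol: names that begin with Nduf followed by a, b, s, v or c, the 4 Sdh genes, names that begin with Uqcr, Cyc1, the Cox subunits from Cox4 to Cox8, and names that begin with Atp5. That pattern finds 116 symbols in the RefSeq mouse table, 97 of them protein coding, and 91 had a probe. Tested were 88 of the 14190 named genes in the fit, each by its brightest probe: 35 genes of complex I, 4 of complex II, 9 of complex III, 16 of complex IV, 17 of complex V and 7 complex I assembly factors (Ndufaf1 to Ndufaf7), which the same letters take in. All 88 were well above background on all 9 arrays. Ndufa4 was counted with complex IV.

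RNA came from tissue labelled as normal colonic mucosa of ICR mice, an outbred stock, and was hybridised to 1-colour Agilent arrays, 3 per group. Every group had received 1,2-dimethylhydrazine (DMH), a colon carcinogen, at 20 mg/kg under the skin each week for 20 weeks, so no group without the carcinogen is compared here. The DMH group ate a diet with 1.24% calcium. The hCA-Notumor and hCA-Tumor groups ate 3% calcium and were split by whether the mice carried tumors, while the tumor status of the DMH mice is labelled only as control. The labels do not state that replicate arrays are different animals, so the p-values cover only the spread among these arrays, which may be technical. Slide 1 held the 3 hCA-Notumor arrays with DMH array 1, slide 2 held hCA-Tumor arrays 1 and 2 with DMH arrays 2 and 3, and slide 3 held hCA-Tumor array 3, so no slide held both high calcium groups. Between 61.1% and 73.7% of probes were well above background per array, and the median background signal ran from 33.5 to 50. Of 13 tested absorptive colonocyte markers, 12 had a probe well above background on all 9 arrays. Among them, Vil1 read 6.24 to 6.5 and Krt20 6.98 to 7.54. All 10 smooth muscle markers had such a probe, with Acta2 at 6.43 to 7.94. Throughout, a level is the log2 signal minus the 75th percentile of its array, and a difference is a difference of such levels.

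Oxidative phosphorylation passes electrons from NADH (complex I) and succinate (complex II) over coenzyme Q to complex III, then over cytochrome c to complex IV, where oxygen is reduced. Complexes I, III and IV pump protons as they do so, and complex V, the ATP synthase, makes ATP from the proton gradient. Complex II is also an enzyme of the citric acid cycle. A few core subunits are encoded in mitochondrial DNA, but all genes described here are nuclear. The absorptive cells of the colon are known to run on the oxidation of butyrate, which feeds this chain.

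The promoters of nuclear respiratory genes are known for binding sites of NRF1 and of the ETS factor GABPA. Of the 88 members, 73 had an entry among the RefSeq promoters (GRCm38.p6). The windows of 5 members are shown, each 250 bases up to the base before the annotated start, for members whose differences between the groups are described below. Capitals mark matches to 1 of 5 motifs, each searched on both strands.
Sdha (chr13:74350241-74350490, minus strand): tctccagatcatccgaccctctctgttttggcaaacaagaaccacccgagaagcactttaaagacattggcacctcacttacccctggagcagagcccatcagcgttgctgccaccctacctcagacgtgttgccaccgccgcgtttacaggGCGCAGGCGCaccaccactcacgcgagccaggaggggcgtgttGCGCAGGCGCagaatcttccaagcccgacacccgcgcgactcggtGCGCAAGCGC
Sdhb (chr4:140961021-140961270, plus strand): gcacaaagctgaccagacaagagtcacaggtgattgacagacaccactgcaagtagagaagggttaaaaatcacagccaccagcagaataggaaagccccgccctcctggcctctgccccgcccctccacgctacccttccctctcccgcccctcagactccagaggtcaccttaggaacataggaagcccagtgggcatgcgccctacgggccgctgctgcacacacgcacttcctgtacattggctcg
Ndufa10 (chr1:92473759-92474008, minus strand): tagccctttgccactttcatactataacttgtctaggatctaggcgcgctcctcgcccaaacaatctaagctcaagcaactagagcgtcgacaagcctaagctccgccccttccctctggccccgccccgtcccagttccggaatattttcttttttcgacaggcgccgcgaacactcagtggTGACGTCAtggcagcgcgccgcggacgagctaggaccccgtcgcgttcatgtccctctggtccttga
Ndufb5 (chr3:32736813-32737062, plus strand): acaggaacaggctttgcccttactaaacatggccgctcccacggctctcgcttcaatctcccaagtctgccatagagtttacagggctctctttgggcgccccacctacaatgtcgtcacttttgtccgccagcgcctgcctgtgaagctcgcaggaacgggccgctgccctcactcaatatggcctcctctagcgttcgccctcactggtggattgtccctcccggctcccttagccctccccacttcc
Ndufs3 (chr2:90904722-90904971, minus strand): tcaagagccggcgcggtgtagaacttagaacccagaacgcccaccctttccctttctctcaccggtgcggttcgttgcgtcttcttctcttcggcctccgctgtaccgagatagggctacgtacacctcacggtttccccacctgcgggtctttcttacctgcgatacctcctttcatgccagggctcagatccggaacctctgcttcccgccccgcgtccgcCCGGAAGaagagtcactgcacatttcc
Sdha carried 3 matches to the NRF1 motif, all on the opposite strand, and the one nearest the start ended at the base before it. Ndufa10 carried the cyclic AMP response element TGACGTCA at -67 to -60, counted back from the start. Ndufs3 carried the GABPA motif CCGGAAG at -27 to -21. Sdhb and Ndufb5 held none of the letters searched. None of the marked matches overlapped another. Among the 73 member windows, 12 (16.4%) held the NRF1 motif against 3.86% of all 27025 promoter windows of that length, and 12 (16.4%) held the GABPA motif against 7.05%. The response element was in 3 (4.11%) against 1.62%, the ERR motif TCAAGGTCA in 1 (1.37%, Atp5g3) against 0.366%, and the YY1 motif AAGATGGCG in 0 against 0.607%. These matches describe the letters only. The NRF1 motif stood before Sdha, which was lower in hCA-Tumor, and before Ndufa8 and Ndufs5, whose differences did not pass the test in any comparison.

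The widest differences lay between the 2 high calcium groups. Against hCA-Tumor, 34 members were higher and 9 lower in hCA-Notumor (limma, Benjamini-Hochberg adjusted p under 0.05), which is 48.9% of the members where 47.6% of all 21084 features passed. The share that passed was thus near the background, and the balance was not: over all features 20.6% were higher and 27% lower. The median difference of the members was 0.13 on the log2 scale, against 0.00 over all features. All 3 hCA-Notumor arrays lay above all 3 hCA-Tumor arrays in 52 members and below them in 12, where this held for 25.9% and 33.2% of all features. Against DMH, hCA-Notumor had 25 members higher and 5 lower (background 35.7% in either direction, 18.4% higher and 17.3% lower), with a median of 0.13 against 0.07 over all features. hCA-Tumor had 3 members higher and 13 lower than DMH (background 37% in either direction, 21% higher and 15.9% lower), with a median of -0.01 against 0.08. The mean of both high calcium groups differed from DMH in only 8 members, 4 higher and 4 lower, or 9.09% where 31.6% of all features passed. The slide block gave 8 higher and 6 lower, where 38.8% of all features passed. Cox6a2, Uqcrh, Ndufa6 and Atp5c1 were higher, and Ndufa4, Sdha and Ndufb5 were among those lower. The calls of Uqcrh, Atp5c1 and Ndufb5 were lost in 12, 13 and 15 of 18 alternative settings. Both comparisons with DMH share its 3 arrays. These are bulk samples, in which fewer cells of a type and less RNA per cell cannot be told apart.

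**Figure D1:**
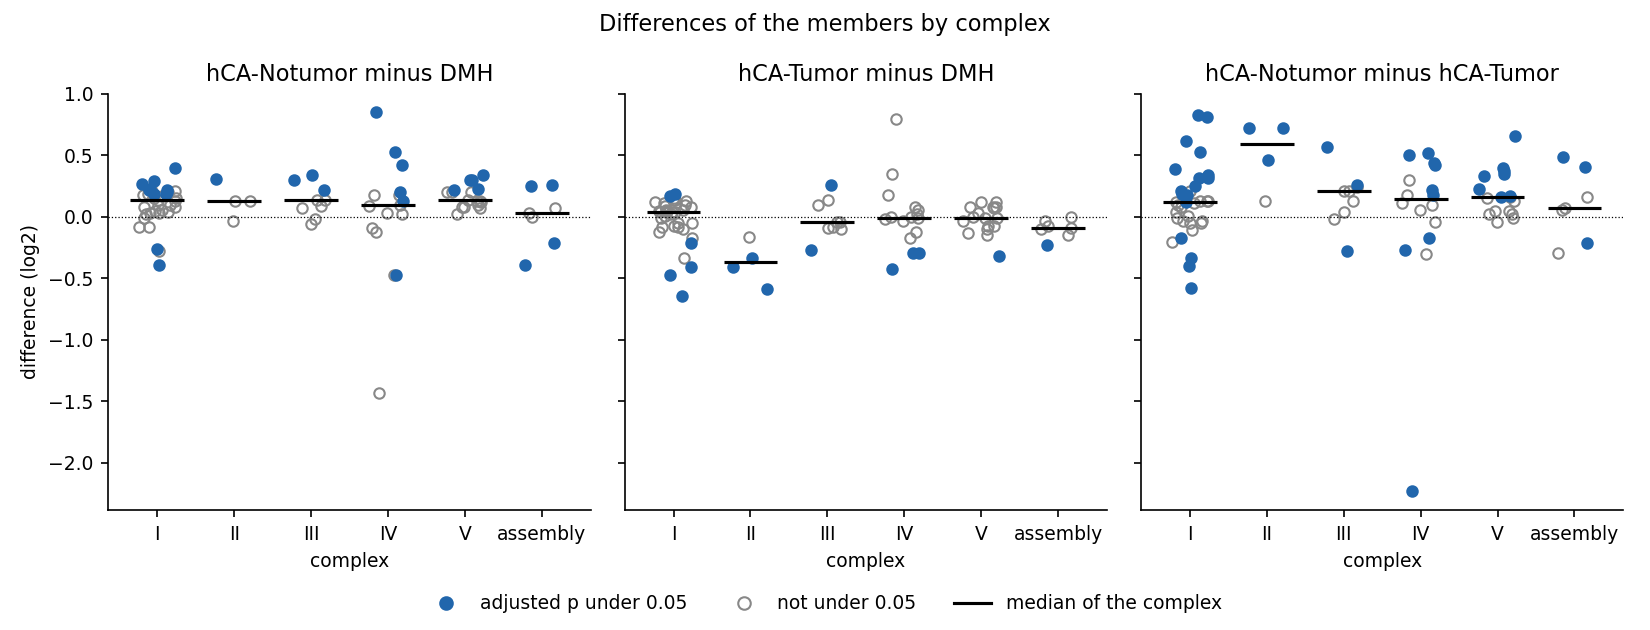
Differences of the 88 members (log2) in 3 comparisons, by complex, 1 point per gene, filled where the adjusted p was under 0.05, with a line at the median of each complex. Complex II lies highest in hCA-Notumor minus hCA-Tumor (median 0.59) and lowest in hCA-Tumor minus DMH (median -0.37), and the single point at -2.23 is Cox7c.

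With slide as a block, fewer members passed in the comparisons of hCA-Notumor, and more in hCA-Tumor against DMH and in the mean. hCA-Notumor then exceeded hCA-Tumor in 14 members and fell short in 1 (background with the block 30%), all 15 among the 43 above, and the median difference was 0.00 against -0.05 over all features. Against DMH, hCA-Notumor kept 8 higher and 3 lower (background 26.7%), 10 of them among the 30 above, and hCA-Tumor had 9 higher and 15 lower (background 42.5%), with all 16 above among them. Within slide 2, the 2 hCA-Tumor arrays differed from the 2 DMH arrays in 4 members higher and 12 lower, where 40% of all features passed, 23% higher and 17% lower. Slide 1 holds a single DMH array, so a comparison within it has no DMH spread of its own and assumes that this array varies like the others. It gave 3 members higher and 1 lower in hCA-Notumor, where 17.6% of all features passed, 10.7% higher and 6.87% lower. DMH array 1, the DMH array on slide 1, read above both other DMH arrays in 70 of the 88 members (79.5%, against 56.1% of all features). Over all 88 members, its median difference from the mean of the other DMH arrays was 0.12, against 0.07 over all features. Leaving out DMH array 1 gave 41 members higher and 8 lower in hCA-Notumor than in DMH. Of all features, 41.5% then passed, 21.5% higher and 20% lower. The balance also moved with the authors' deposited table, which is centred on each array's median and holds fewer probes (18459 features tested). The parts of centring and of the probe set were not tested apart. With these deposited values, the median of all features in hCA-Notumor minus DMH lay at -0.14 in place of 0.07. In that comparison 1 member was higher and 4 were lower (all features 18.1%, with 5.29% higher and 12.8% lower). There hCA-Tumor minus DMH had 0 higher and 5 lower (all features 13%, with 5.15% higher and 7.87% lower). hCA-Notumor minus hCA-Tumor had 10 higher and 2 lower (all features 25.9%, with 9.6% higher and 16.3% lower).

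**Figure D2:**
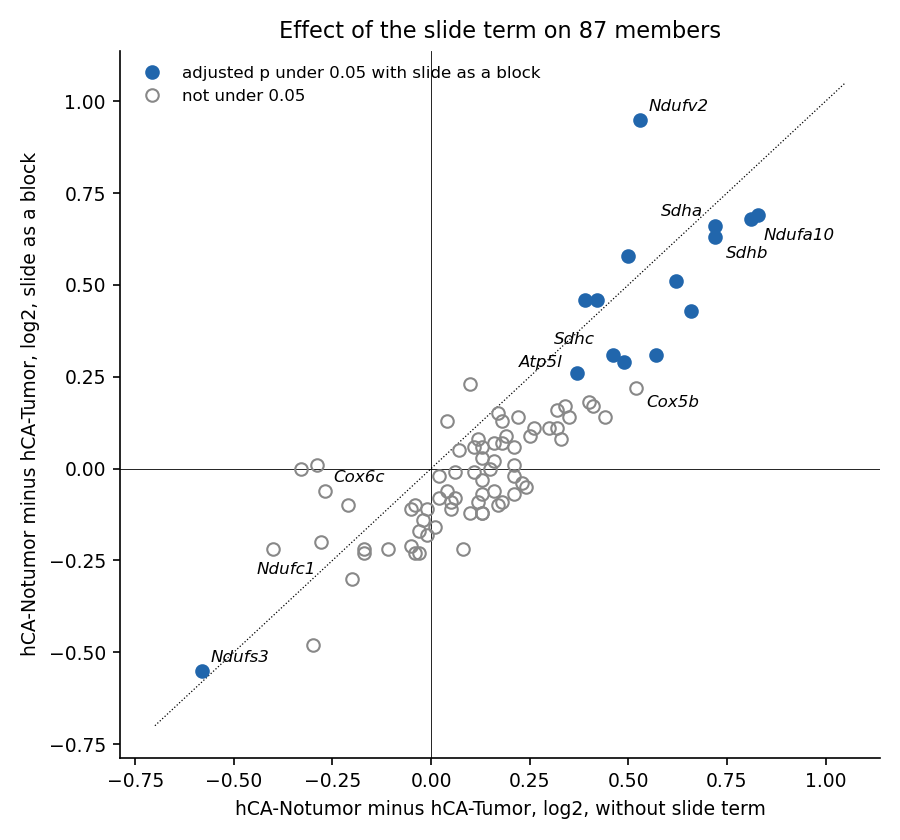
Difference between hCA-Notumor and hCA-Tumor (log2) for 87 members without a slide term (horizontal) and with slide as a block (vertical), filled where the adjusted p with the block was under 0.05. Cox7c is left out for scale. Of the 87 points, 74 lie below the dotted line of equality, and Ndufa10, Sdha and Sdhb, among the members furthest to the right, stay high in both.

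Complex I takes electrons from NADH and is built from a conserved core and many accessory subunits. Of its 35 members, 13 were higher and 4 lower in hCA-Notumor than in hCA-Tumor, with 5 higher and 1 lower among 7 core subunits and 8 higher and 3 lower among 28 accessory ones. That is 48.6% of complex I, near the 47.6% of all features. With slide as a block, 5 were higher and 1 lower (3 and 1 of the core, 2 and 0 of the accessory subunits), and the median of complex I went from 0.12 to -0.06.

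Ndufa10, an accessory subunit of the membrane arm whose promoter window holds the response element printed above, differed between all 3 groups. Its levels were 2.78, 2.77 and 2.75 in hCA-Notumor, 2.0, 1.99 and 1.89 in hCA-Tumor, and 2.43, 2.33 and 2.34 in DMH. The DMH arrays lay midway and no array overlapped another group: the difference was 0.40 ± 0.05 (SE, as after each difference below) for hCA-Notumor minus DMH (adjusted p = 0.000889), -0.41 ± 0.05 for hCA-Tumor minus DMH (adjusted p = 0.000863), and 0.81 ± 0.05 between the high calcium groups (1.75-fold, adjusted p = 3.76e-05). With the block these were 0.34, -0.35 and 0.68, each past the threshold. Ndufb5, another accessory subunit of the membrane arm, was 1.56, 1.44 and 1.56 in hCA-Notumor, 0.91, 0.95 and 0.84 in hCA-Tumor and 1.42, 1.33 and 1.36 in DMH. The groups did not overlap. hCA-Tumor minus DMH was -0.47 ± 0.06 (adjusted p = 0.000842, with the block -0.42), and hCA-Notumor minus DMH was 0.15, which did not pass (adjusted p = 0.0816).

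The iron-sulfur core subunits Ndufv2 and Ndufs8 were also higher in hCA-Notumor than in hCA-Tumor. Ndufv2 read 2.91 to 2.98 in hCA-Notumor but was spread from 2.14 to 2.63 in hCA-Tumor and from 2.55 to 2.87 in DMH, and its difference was 0.53 ± 0.14 (adjusted p = 0.0143, with the block 0.95). Ndufs8 differed by 0.39 ± 0.05 (adjusted p = 0.000968, with the block 0.46). Ndufs1, the largest core subunit, differed by 0.34 (adjusted p = 0.00372) and Ndufv1, which binds NADH, by 0.25 (adjusted p = 0.0317), and both calls were lost with the block (adjusted p = 0.144 and 0.459). Ndufs1 was also 0.21 below DMH in hCA-Tumor (difference -0.21, adjusted p = 0.0358, with the block 0.0434).

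Ndufs3, a core subunit of the arm that leads electrons to coenzyme Q, went the other way. It read 4.0, 4.13 and 4.03 in hCA-Notumor, 4.69, 4.67 and 4.53 in hCA-Tumor, and 4.39, 4.5 and 4.44 in DMH. The order of the groups was the reverse of that for Ndufa10, again with no overlap. hCA-Notumor lay below hCA-Tumor by 0.58 ± 0.06 (difference -0.58, 1.49-fold, adjusted p = 0.000325, with the block -0.55 and adjusted p = 0.011) and below DMH (-0.39, adjusted p = 0.00264). hCA-Tumor lay above DMH by 0.19 (adjusted p = 0.0491, with the block 0.0348), a call lost in 13 of 19 alternative settings. The accessory subunit Ndufc1 was likewise lower in hCA-Notumor than in hCA-Tumor (-0.40 ± 0.06, adjusted p = 0.00166), but with the block its adjusted p was 0.0531, and a second probe of the gene differed by 0.11. Ndufab1 (-0.33, adjusted p = 0.027) and Ndufs4 (-0.17, adjusted p = 0.014) were also lower in hCA-Notumor than in hCA-Tumor. Both calls were lost with the block (adjusted p = 0.985 and 0.077), and a second Ndufab1 probe differed by 0.09. Ndufa6, an accessory subunit of the LYR protein family, was higher than DMH in both high calcium groups. It read 5.15, 5.16 and 5.18 in hCA-Notumor, 5.05, 5.08 and 5.0 in hCA-Tumor and 4.88, 4.87 and 4.87 in DMH, with differences of 0.29 ± 0.04 (adjusted p = 0.00152) and 0.17 ± 0.04 (adjusted p = 0.014).

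Among the 7 assembly factors, Ndufaf3 was higher in hCA-Notumor (1.16 to 1.2) than in hCA-Tumor (0.64 to 0.73) by 0.49 ± 0.06 (adjusted p = 0.0006, with the block 0.29 and 0.0282). Ndufaf2 was 0.41 higher (adjusted p = 0.00274, lost with the block at 0.173). Ndufaf6 was lower in hCA-Notumor than in hCA-Tumor by 0.21 (difference -0.21, adjusted p = 0.00913, lost with the block at 0.331). Against DMH, hCA-Notumor was higher in Ndufaf2 (0.26) and Ndufaf3 (0.25) and lower in Ndufaf5 (-0.39) and Ndufaf6 (-0.21), and all 4 calls were lost with the block.

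Complex II, succinate dehydrogenase, was the complex in which the largest share of members differed between the high calcium groups. These were 3 of 4 members, where 47.6% of all features passed. Its median level was also the lowest of complexes I to V (3.89 in hCA-Notumor, 3.3 in hCA-Tumor, 3.67 in DMH). Of all members, 63.6% passed in this comparison at levels below 4, 58.1% at 4 to 6 and 17.4% at 6 and above. The part of level in the order of the complexes was not tested. Sdha carries the flavin that oxidises succinate, Sdhb the iron-sulfur clusters, and Sdhc and Sdhd anchor both in the membrane. Sdha read 2.9, 3.02 and 3.08 in hCA-Notumor, 2.3, 2.28 and 2.26 in hCA-Tumor and 2.9, 2.8 and 2.92 in DMH. The hCA-Notumor arrays ran into the DMH arrays, and the hCA-Tumor arrays stood well below both. Sdha was 1.65-fold higher in hCA-Notumor than in hCA-Tumor (0.72 ± 0.06, adjusted p = 0.000122) and 1.51-fold lower in hCA-Tumor than in DMH (-0.59 ± 0.06, adjusted p = 0.000488), and with slide as a block the differences were 0.66 (adjusted p = 0.0133) and -0.57 (adjusted p = 0.00349). A second Sdha probe differed by 0.48 between the high calcium groups.

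Sdhb read 3.58, 3.46 and 3.58 in hCA-Notumor, 2.8, 2.83 and 2.84 in hCA-Tumor and 3.3, 3.18 and 3.23 in DMH, so that all 3 groups were separate. It was higher in hCA-Notumor than in hCA-Tumor by 0.72 ± 0.05 (adjusted p = 7.54e-05, with the block 0.63 and 0.00815) and lower in hCA-Tumor than in DMH (-0.41 ± 0.05, adjusted p = 0.00118, with the block -0.39 and 0.00551). Its 0.31 above DMH in hCA-Notumor (adjusted p = 0.00413) missed the threshold with the block (adjusted p = 0.0514). Sdhc read 4.17, 4.24 and 4.28 in hCA-Notumor, 3.83, 3.81 and 3.68 in hCA-Tumor and 4.17, 4.06 and 4.07 in DMH, with 0.46 ± 0.06 between the high calcium groups (adjusted p = 0.000912, with the block 0.31 and 0.0426) and -0.33 ± 0.06 for hCA-Tumor minus DMH (adjusted p = 0.0055, within slide 2 -0.25 and 0.0258). Sdhd read 4.96 to 5.07 in hCA-Tumor against 5.05 to 5.23 in hCA-Notumor and 5.15 to 5.21 in DMH. Its differences pointed the same way, 0.13 and -0.16, and did not pass the test (adjusted p = 0.123 and 0.0854). Within slide 2, the hCA-Tumor arrays were lower than the DMH arrays in Sdha, Sdhb and Sdhc. Between hCA-Notumor and DMH, only Sdhb passed the test in this complex, and only without the slide term.

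**Figure D3:**
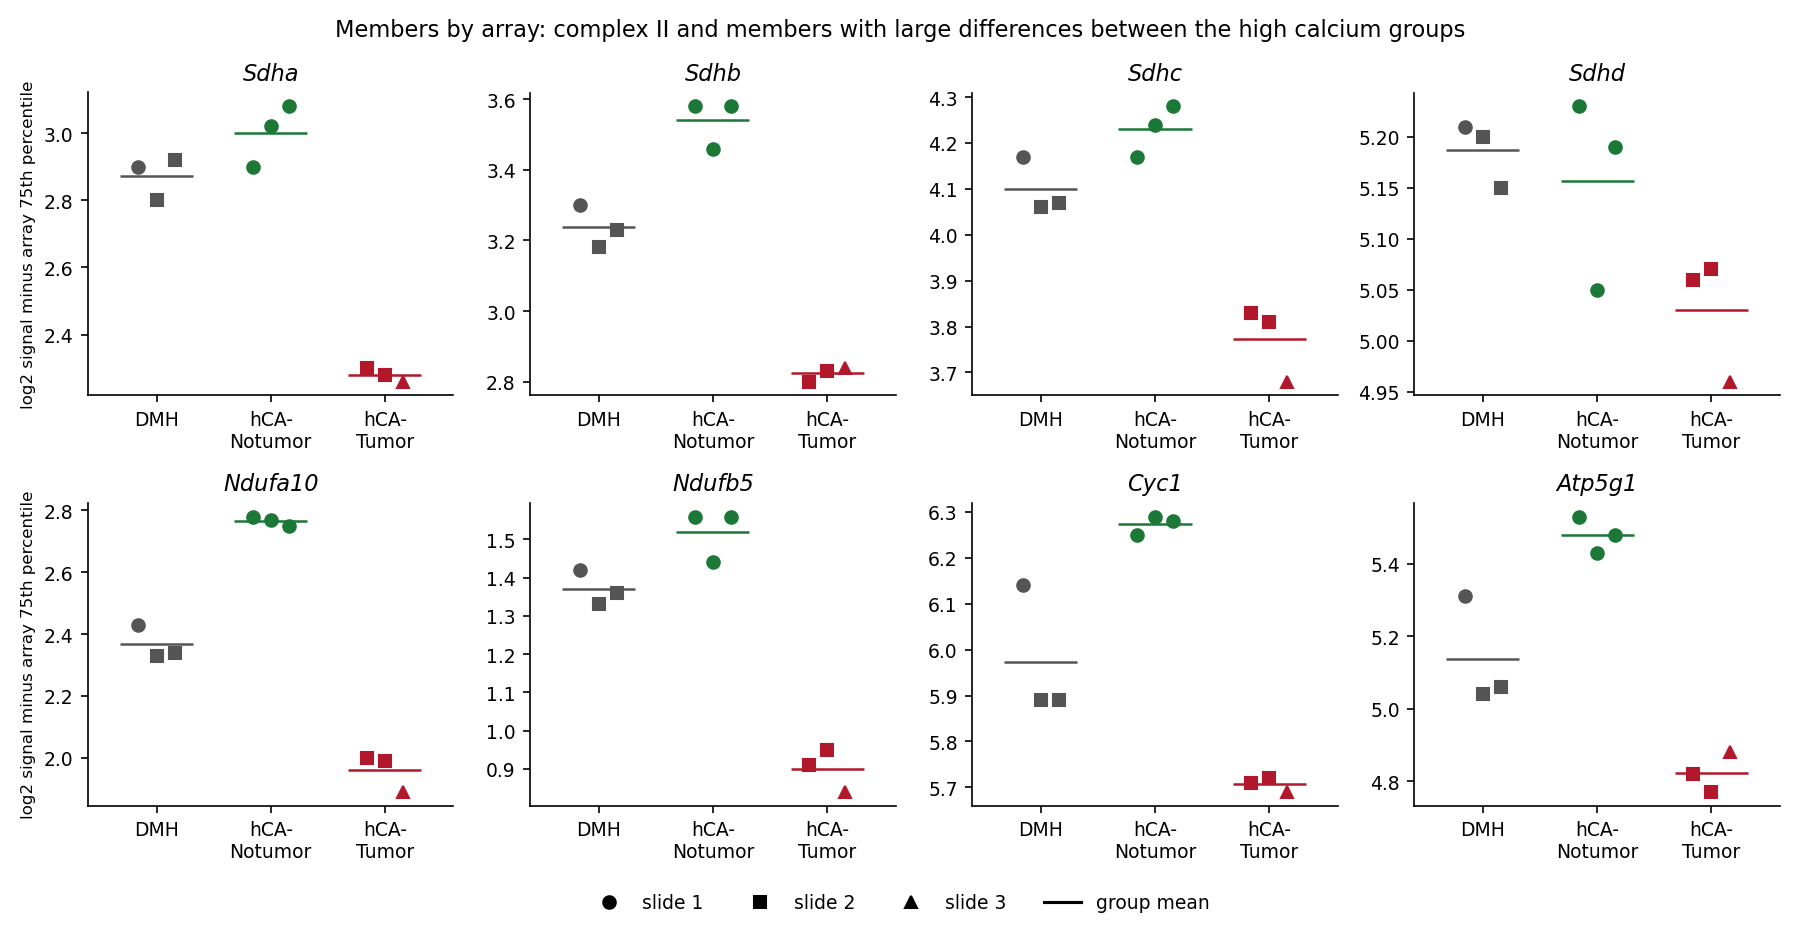
Level of 8 members on each array (log2 signal minus the array's 75th percentile) by group, with marker shapes for the slide and lines at the group means; each panel has its own vertical scale. In 7 of the 8, all but Sdhd, the 3 hCA-Tumor arrays lie below every other array, on slide 2 and slide 3 alike.

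Complex III hands electrons from coenzyme Q to cytochrome c. Its cytochrome c1, Cyc1, read 6.25, 6.29 and 6.28 in hCA-Notumor, 5.71, 5.72 and 5.69 in hCA-Tumor and 6.14, 5.89 and 5.89 in DMH. DMH array 1 read 0.25 above the other two of its group, and the groups did not overlap. The difference between the high calcium groups was 0.57 ± 0.07 (1.48-fold, adjusted p = 0.000679, with the block 0.31 and 0.0229), and hCA-Tumor minus DMH was -0.27 ± 0.07 (adjusted p = 0.0226, with the block -0.18 and 0.0232). The core protein Uqcrc2 was 0.26 higher in hCA-Notumor than in hCA-Tumor (adjusted p = 0.008, lost with the block at 0.293). Uqcrb, a small subunit, was lower in hCA-Notumor than in hCA-Tumor (-0.28, adjusted p = 0.00995, lost with the block at 0.221) and higher in hCA-Tumor than in DMH (0.26, adjusted p = 0.0188). Uqcrh, the hinge protein, was higher than DMH in the mean of the high calcium groups (0.24 ± 0.07, adjusted p = 0.0304), at 7.13 to 7.14 in hCA-Notumor, 6.78 to 7.04 in hCA-Tumor and 6.72 to 6.89 in DMH. A second probe of the gene read 0.28 for hCA-Notumor minus DMH but -0.09 for hCA-Tumor minus DMH, where the probe used read 0.34 and 0.14. The Rieske protein Uqcrfs1 and the core protein Uqcrc1 passed the test in no comparison, their differences running from -0.09 to 0.10.

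Complex IV reduces oxygen. Of its 16 members, 6 were higher and 3 lower in hCA-Notumor than in hCA-Tumor, and 0 were higher and 3 lower in hCA-Tumor than in DMH (all features 47.6% and 37%). The slide block left 2 and 0, with a median of -0.01, and 0 and 3. Several of its subunits exist as a form made in most tissues and a form known from heart and skeletal muscle. The common forms Cox6a1, Cox7a2 and Cox8a differed by 0.18 or less in every comparison, and none passed the test. The muscle form Cox6a2 read -2.19, -2.47 and -2.42 in hCA-Notumor, -3.05, -2.94 and -2.58 in hCA-Tumor and -3.17, -3.26 and -3.19 in DMH. All hCA-Notumor arrays were above all others, and hCA-Tumor array 3, alone on its slide, was the highest of its group. hCA-Notumor exceeded DMH by 0.85 ± 0.13 (1.8-fold, adjusted p = 0.00232, with the block 0.81 and 0.00739), and hCA-Tumor minus DMH was 0.35 (adjusted p = 0.0706). Cox7a1, the muscle form of another subunit, was 0.42 above DMH in hCA-Notumor (adjusted p = 0.0086, with the block 0.22 and 0.0462) and 0.44 above hCA-Tumor (adjusted p = 0.00511, lost with the block at 0.216). Cox8b, the third such form, spread from -1.25 to -0.67 in hCA-Notumor and passed the test in no comparison.

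Muscle markers moved between the same groups. Of the 10 smooth muscle markers, 10 were higher in hCA-Tumor than in DMH and 7 in hCA-Notumor (all features 21% and 18.4% higher), and 3 were lower in hCA-Notumor than in hCA-Tumor. With slide as a block, 10 and 1 were higher than in DMH, and 10 were lower in hCA-Notumor than in hCA-Tumor. Their summed linear signal relative to the 75th percentile was 514 to 642 in hCA-Notumor, 705 to 924 in hCA-Tumor and 273 to 478 in DMH. Of 8 tested striated muscle markers, 2 were higher and 1 lower than DMH in hCA-Notumor, and 5 were higher in hCA-Tumor, with sums of 4.88 to 5.28, 6.22 to 7.46 and 3.7 to 4.48. Both sums were highest in hCA-Tumor, where Cox6a2 and Cox7a1 were lower than in hCA-Notumor. Their part in the levels of the muscle forms was not tested.

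Ndufa4, a subunit first counted with complex I and later placed in complex IV, was lower than DMH in both high calcium groups. It read 5.53, 5.5 and 5.5 in hCA-Notumor, 5.71, 5.74 and 5.6 in hCA-Tumor and 5.97, 5.95 and 6.0 in DMH, with no overlap between any pair of groups. The mean of both high calcium groups lay 1.3-fold below DMH (-0.38 ± 0.04, adjusted p = 0.00073, with the block -0.36 and 0.00121). hCA-Notumor minus DMH was -0.47 ± 0.05 (adjusted p = 0.000429, within slide 1 -0.47) and hCA-Tumor minus DMH -0.29 ± 0.05 (adjusted p = 0.00335, within slide 2 -0.25 and 0.0279). Cox7a2l, which helps join complexes III and IV into supercomplexes, read 3.77 to 3.8 in hCA-Notumor, 3.34 to 3.39 in hCA-Tumor and 3.64 to 3.68 in DMH. It was 0.42 ± 0.04 higher in hCA-Notumor than in hCA-Tumor (adjusted p = 0.000185, with the block 0.46 and 0.00871) and lower in hCA-Tumor than in DMH (-0.29 ± 0.04, adjusted p = 0.00134, with the block -0.31). Cox5b, a zinc-binding subunit, was 0.53 above DMH in hCA-Notumor (adjusted p = 0.0241, with the block 0.24 and 0.0377) and 0.52 above hCA-Tumor (adjusted p = 0.018, lost with the block at 0.0996). Cox6b2, a form known from testis, was lower in hCA-Tumor than in DMH (-0.42 ± 0.12, adjusted p = 0.0298, with the block -0.43 and 0.00296). Cox6c was lower in hCA-Notumor than in hCA-Tumor (-0.27 ± 0.07, adjusted p = 0.0115, lost with the block at 0.597). Cox5a was 0.20 above DMH and 0.18 above hCA-Tumor in hCA-Notumor (adjusted p = 0.0239 and 0.0271, both lost with the block), and Cox4i1 passed in no comparison.

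**Figure D4:**
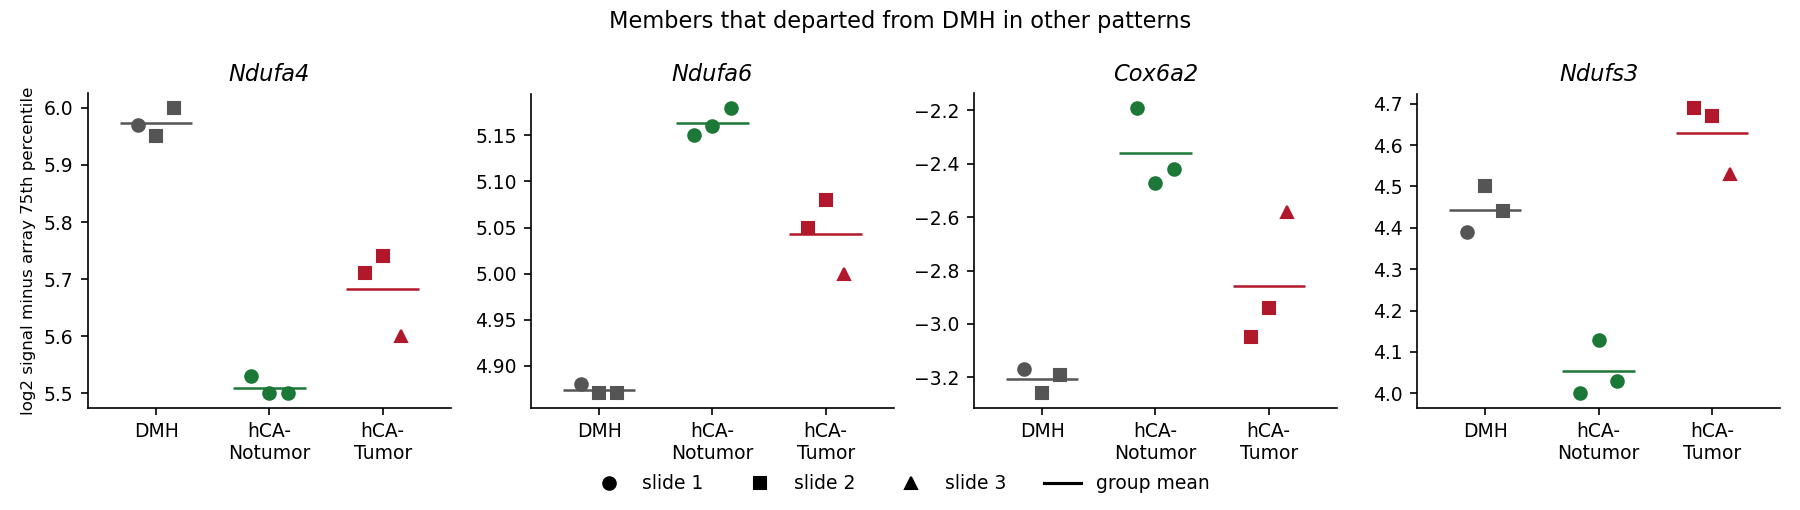
Level of Ndufa4, Ndufa6, Cox6a2 and Ndufs3 on each array (log2 signal minus the array's 75th percentile) by group, with marker shapes for the slide and lines at the group means; each panel has its own vertical scale. Ndufa4 is highest and Ndufa6 lowest in DMH, Cox6a2 is highest in hCA-Notumor, and Ndufs3 is lowest there.

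Cox7c showed the widest difference of any member, and it followed the slide. Its level was 1.74, 1.72 and 1.9 in hCA-Notumor, 4.09, 4.06 and 3.91 in hCA-Tumor, and 1.73, 4.02 and 3.9 in DMH. The 4 low arrays are those of slide 1, DMH array 1 among them, and the 5 arrays of the other slides were 4.67-fold higher on average. hCA-Notumor minus hCA-Tumor was -2.23 ± 0.55 (adjusted p = 0.0128) without a slide term and -0.06 (adjusted p = 0.745) with it. A gap of at least 1 between slide 1 and all other arrays occurred in 1 member (1.14%) and in 235 of 21013 features (1.12%). Smaller gaps were more common among the members. Slide 1 stood apart by a gap of any size in 45 of 88 members (51.1%), against 19.7% of all features. The 4 arrays of slide 1 include all 3 of hCA-Notumor, and the part of the slide in these gaps was not tested. Among the other probes of members, the dimmest probe of Ndufa8 read -0.76 to -0.58 on slide 1 and 1.66 to 1.8 elsewhere, while the brighter probe used for the gene differed by -0.12 between these arrays. The dimmest probe of Ndufa12 read -1.43 to -1.24 on slide 1 and 0.37 to 0.66 elsewhere, while its brightest probe differed by 0.06.

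**Figure D5:**
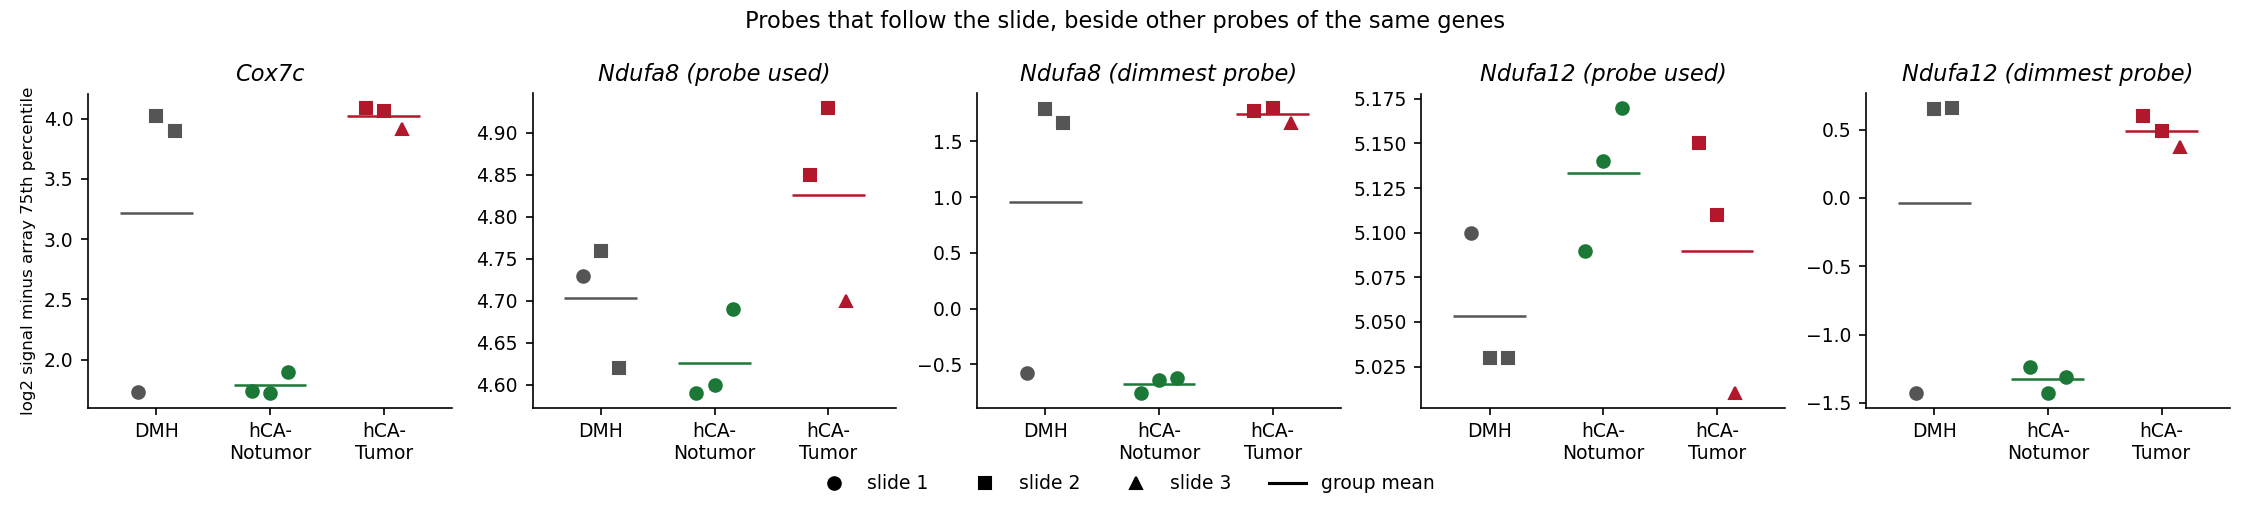
Level of the Cox7c probe and of pairs of probes for Ndufa8 and Ndufa12 on each array (log2 signal minus the array's 75th percentile), by group with marker shapes for the slide and lines at the group means; each panel has its own vertical scale. The Cox7c probe and the dimmest probes are low on the 4 arrays of slide 1 in either group, and the probes used for Ndufa8 and Ndufa12 show no such step.

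Complex V makes ATP. Of its 17 members, 8 were higher and 0 lower in hCA-Notumor than in hCA-Tumor, and 5 were higher and 0 lower than in DMH. These are 47.1% and 29.4% of the complex, at or below the 47.6% and 35.7% of all features, and all lie in 1 direction. With slide as a block these were 2 and 1. In the authors' deposited table, with its other centring and fewer probes, they were 1 and 0. The membrane ring of the enzyme is made of a c subunit that 3 genes encode for the same mature protein. Of these, Atp5g1 read 5.53, 5.43 and 5.48 in hCA-Notumor, 4.82, 4.77 and 4.88 in hCA-Tumor and 5.31, 5.04 and 5.06 in DMH. The groups were apart, and DMH array 1 lay nearest to the hCA-Notumor arrays of its slide. The difference between the high calcium groups was 0.66 ± 0.08 (1.58-fold, adjusted p = 0.000528, with the block 0.43 and 0.0161), that of hCA-Tumor minus DMH -0.32 ± 0.08 (adjusted p = 0.0172, with the block -0.26 and 0.013) and that of hCA-Notumor minus DMH 0.34 (adjusted p = 0.0133, lost with the block at 0.0938). Atp5g2 was 0.33 higher in hCA-Notumor than in hCA-Tumor (adjusted p = 0.00928, lost with the block at 0.536), and Atp5g3 differed by -0.04. Atp5l, of the membrane part, was 0.37 ± 0.05 higher in hCA-Notumor than in hCA-Tumor (adjusted p = 0.00099, with the block 0.26 and 0.0493) and 0.30 above DMH (adjusted p = 0.00372, with the block 0.0389). Atp5d and Atp5pb were 0.40 and 0.35 higher in hCA-Notumor than in hCA-Tumor, and both calls were lost with the block (adjusted p = 0.139 and 0.307).

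Of the catalytic head, Atp5a1 differed by 0.17 between the high calcium groups (adjusted p = 0.00753, lost with the block at 0.141) and Atp5b by 0.02 (adjusted p = 0.795). Atp5b rests on the choice of probe: the brightest of its 3 kept probes differed by 0.02, the next by 0.78 and the dimmest by 0.19. Atp5c1, the central stalk, was 0.22 above DMH in hCA-Notumor (adjusted p = 0.0177, lost with the block at 0.128). In all, 18 members had several kept probes, and in only 6 of them did the probes agree within 0.2 between the high calcium groups. Uqcrc1 was another at which they disagreed, -0.02 by the brightest and 0.32 by the other.

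Cox4i2, the form of Cox4 known from lung, was well above background on 2 hCA-Notumor arrays and 1 hCA-Tumor array, Cox7b2 on 1 hCA-Notumor array and Cox8c on none, so these 3 were not tested. For 6 further protein-coding genes of the pattern (Ndufa11, Ndufa4l2, Ndufaf8, Ndufb1, Ndufb4b and Ndufb4c) no probe was named here.

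The citric acid cycle, which feeds complex I with NADH and shares complex II, differed between the high calcium groups in one direction. Of 16 enzymes of the cycle and of pyruvate dehydrogenase, 13 were higher and 0 lower in hCA-Notumor than in hCA-Tumor (median 0.33), 9 and 0 with slide as a block, and 4 and 0 in the authors' deposited table. In hCA-Tumor 12 were lower and 1, Cs (citrate synthase), was higher than in DMH (median -0.23), 10 and 1 with the block. Over all features, 20.6% were higher and 27% lower between the high calcium groups, 14.4% and 15.6% with the block. In hCA-Tumor against DMH, 21% of all features were higher and 15.9% lower, 23.9% and 18.6% with the block. Ogdh, the first subunit of oxoglutarate dehydrogenase, read 2.26 to 2.3 in hCA-Notumor, 1.17 to 1.39 in hCA-Tumor and 1.8 to 1.98 in DMH, and differed by 1.02 between the high calcium groups (adjusted p = 7.39e-05). Suclg1, of succinyl-CoA synthetase, which makes the succinate that complex II oxidises, differed by 0.74 (adjusted p = 5.14e-05) and Idh3b, of isocitrate dehydrogenase, by 0.73 (adjusted p = 6.38e-05).

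The counts of the next 4 lists stand against 47.6% of all features that passed between the high calcium groups, 30% with the block. In hCA-Tumor against DMH, 37% of all features passed, 42.5% with the block. Of 19 tested genes for coenzyme Q synthesis, electron input and exchange across the membrane, 10 were higher and 1 lower in hCA-Notumor than in hCA-Tumor (7 and 1 with the block). Coq5, a methyltransferase of coenzyme Q synthesis, was 0.74 higher (adjusted p = 0.000843), the uncoupling protein gene Ucp2 0.64 (adjusted p = 0.000714) and Slc25a3, the phosphate carrier that supplies complex V, 0.59 (adjusted p = 0.000149), while Coq7, the hydroxylase of the same synthesis, was lower (-0.60, adjusted p = 0.000406). Of 35 tested assembly factors outside the symbol pattern, 10 were higher and 10 lower, and 12 were lower and 1 higher in hCA-Tumor than in DMH. The slide block gave 4 and 4, and 10 lower and 2 higher. The widest was Timmdc1, a membrane chaperone of complex I assembly, which read -0.77 to -0.75 in hCA-Notumor, -3.19 to -2.98 in hCA-Tumor and -1.7 to -1.44 in DMH. It differed by 2.34 between the high calcium groups (adjusted p = 7.21e-06, with the block 2.15), more than any complex I subunit. Of 78 mitochondrial ribosomal proteins, which make the subunits encoded in mitochondrial DNA, 24 were higher and 10 lower in hCA-Notumor than in hCA-Tumor, and 1 was higher and 25 lower in hCA-Tumor than in DMH. The slide block gave 9 and 3, with a median of -0.05 equal to that of all features, and 5 and 22. Of 18 import and membrane proteins, 7 were higher and 2 lower in hCA-Notumor than in hCA-Tumor, led by Tomm40, the import pore (1.45, adjusted p = 6.39e-05), and with slide as a block 4 and 0.

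Of 20 regulators of mitochondrial genes, 9 were higher and 5 lower in hCA-Notumor than in hCA-Tumor (all features 20.6% higher and 27% lower). Ppargc1a, the coactivator PGC-1alpha, read 1.16, 1.23 and 1.21 in hCA-Notumor, 0.41, 0.26 and 0.39 in hCA-Tumor and -0.04, -0.03 and -0.15 in DMH. The 3 groups were apart, with DMH lowest: the differences from DMH were 1.27 (adjusted p = 1.38e-05) and 0.43 (adjusted p = 0.00159). hCA-Tumor was thus above DMH in Ppargc1a and below it in Sdha, Sdhb and Ndufb5. The other regulators higher in hCA-Notumor than in hCA-Tumor were Esrrg (1.18), Ppara (0.87), Tfb2m (0.70), Hif1a (0.53), Ppargc1b (0.42), Tfam (0.36), Polg2 (0.31) and Polg (0.18), and those lower were Gabpa (-0.37), Gabpb1 (-0.28), Polrmt (-0.28), Myc (-0.22) and Twnk (-0.20). With slide as a block, only 4 regulators were higher and 1 lower, where 30% of all features passed, so most of these calls were lost. In hCA-Tumor against DMH, 2 of the 20 regulators were higher and 6 lower, where 37% of all features passed, 21% higher and 15.9% lower. With slide as a block these were 4 higher and 5 lower, where 42.5% of all features passed. In hCA-Tumor, Tfam, which packages mitochondrial DNA, was below DMH (-0.39, adjusted p = 0.000921), as were Tfb1m (-0.43), Esrrg (-0.39), Myc (-0.39), Tfb2m (-0.38) and Polg (-0.16), while Gabpa was above it (0.25). Nrf1 itself passed the test in no comparison, with differences from -0.04 to 0.14.

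Marker lists of other cell types are given beside these comparisons. Between the high calcium groups their counts stand against 20.6% of all features higher and 27% lower. Of 13 absorptive colonocyte markers, 6 were higher and 0 lower in hCA-Notumor than in hCA-Tumor, and their summed linear signal was 744 to 878, 550 to 760 and 650 to 786 in hCA-Notumor, hCA-Tumor and DMH. Of 8 goblet cell markers, 5 were higher and 0 lower in hCA-Notumor than in hCA-Tumor (sums 1700 to 1780, 1310 to 1570 and 1270 to 1380). Of 9 B and plasma cell markers, 6 were higher and 0 lower (sums 97.4 to 102, 64.2 to 78.1 and 97.4 to 102). Of 12 proliferation markers, 2 were higher and 5 lower in hCA-Notumor than in hCA-Tumor (sums 38.2 to 42.1, 41.3 to 44.1 and 52.0 to 54.0). With slide as a block, the higher and lower counts were 4 and 0 for colonocyte, 3 and 1 for goblet cell, and 4 and 0 for B and plasma cell markers. Those for proliferation markers stayed at 2 and 5. With the block, 14.4% of all features were higher and 15.6% lower. Against DMH, white adipocyte sums were lower in both high calcium groups (14.3 to 20.3 and 17.3 to 24.8 against 46.1 to 51.6), as were myeloid and mast cell sums (9.73 to 10.9 and 7.87 to 8.68 against 15.9 to 16.9). Of the brown adipocyte list, Ucp1 and Elovl3 were not well above background on all arrays of any group, and sums were 0.457 to 0.772, 0.515 to 0.607 and 0.647 to 0.694. The part of any of these cell types in the differences of the members was not tested.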

How the data were processed

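Total RNA of 9 samples, 3 per group, was labelled with Cy3 and hybridised to 1-colour Agilent mouse arrays. The scanner files hold intensity values that Agilent Feature Extraction 10.5.1.1 had background-subtracted before they were deposited, per the file headers. The authors' deposited series table holds log2 values for 23726 probes, found by comparison with the scanner values to be the log2 processed signal minus each array's median (correlation at least 0.99999 per array); it served as an alternative. Here log2 of the processed signal minus each array's 75th percentile was used, without control spots and outlier flags. Probes well above background on all 3 arrays of a group were kept (27192), with the brightest probe per gene, giving 21084 features. Gene names came from the arrays' accessions through RefSeq (GRCm38.p6), which gave 25097 of 41174 probes 1 symbol.

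Groups were compared with lmFit and eBayes in limma 3.58.1 (R 4.3.3) over all 9 arrays and all features, with Benjamini-Hochberg adjustment at 0.05; every adjusted p is limma's. The fit was tested on simulated data. The mean of the high calcium groups, each group against DMH, and the groups against each other were tested. Slide came from the scanner files and was tried as a block. Members were named when among the 10 largest rises or 10 largest falls past the threshold in a comparison, the largest of either in a complex, or on a list of core subunits and tissue isoforms; of other lists up to 3 rises and 3 falls were eligible, and all regulators that passed. Sdhd, Ndufs8, Uqcrc2, Atp5pb, Ndufa8, Ndufa12, Ndufs5, Nrf1 and the cell type markers named fall outside this rule and were chosen after their values were seen. Members and lists were chosen with earlier results of these data known. The number of arrays limits the precision. Same-numbered arrays do not pair the samples, so a replicate block was run only as an alternative setting. The values of 1 member are not reported here, and it is counted in the totals.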

Additional observations from a re-analysis of the deposited data

Results flagged for a closer look

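In the 7 members named here the difference from DMH ran in opposite directions in the high calcium groups, each with a difference between hCA-Notumor and hCA-Tumor past limma's adjusted threshold. Ndufa10 differed by 0.81 between the high calcium groups, Sdhb by 0.72, Atp5g1 by 0.66, Cyc1 by 0.57, Ndufaf3 by 0.49 and Cox7a2l by 0.42, all higher in hCA-Notumor. Ndufs3 differed by -0.58 and was lower there. Both differences from DMH share the DMH arrays, so opposite signs follow in part from where those arrays lie. With slide as a block, all 7 differences between the high calcium groups passed, but 5 of the 7 no longer passed for hCA-Notumor minus DMH: Atp5g1 (adjusted p = 0.0938), Cox7a2l (0.093), Cyc1 (0.112), Ndufaf3 (0.0959) and Sdhb (0.0514). The call of Ndufs3 for hCA-Tumor minus DMH passed with the block but was lost in 13 of 19 alternative settings.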

How the results depend on the processing

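The high calcium groups lay on different slides, and their difference with slide as a block rests on the DMH arrays that link slides 1 and 2. Between hCA-Notumor and hCA-Tumor, 9 of 43 calls held in all 18 settings run, among them Atp5g1, Cyc1, Ndufa10, Ndufb5, Ndufs3, Ndufv2, Sdha and Sdhb. For hCA-Tumor against DMH 4 of 16 held, among them Ndufb5, Sdha and Sdhb, for hCA-Notumor against DMH Cox6a2 and Ndufa4 (2 of 30), and for the mean Ndufa4 (1 of 8). Over all named results and settings, 2031 of 2331 values kept their side of the threshold, 275 became weaker, 22 stronger and 3 reversed. A change of sign was counted as reversed only where the main or the alternative fit passed. Values that passed in neither could change sign and still count among the 2031. The reversed values were Atp5c1 in the mean (-0.01) and Cox7a2l in hCA-Notumor minus DMH (-0.06), both with the deposited series values, and Atp5b in hCA-Tumor minus DMH (-0.28) with the mean of its probes. The cause was not tested.

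For the mean against DMH, the count of 8 members became 3 with normexp, 3 with the deposited series values, 5 without the filter on dim probes and 14 with slide as a block, and the median of 0.04 became -0.03 with quantile normalization and -0.12 with the series values. For hCA-Notumor against DMH, the count of 30 became 13 with normexp, 19 with quantile normalization, 5 with the series values, 16 without the filter, 11 with slide as a block and 4 within slide 1. Its median of 0.13 became 0.03 with quantile normalization, -0.06 with the series values, 0.05 with slide as a block and 0.05 within slide 1. For hCA-Tumor against DMH, the count of 16 became 9 with normexp, 5 with the series values and 9 without the filter, and the median of -0.01 became -0.07 with quantile normalization, -0.14 with the series values, 0.04 with slide as a block and 0.04 within slide 2. Between the high calcium groups, the count of 43 became 12 with the series values and 15 with slide as a block, and the median of 0.13 became 0.07 and 0.00.

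Leaving out 1 array at a time gave counts of 4 to 28 and medians of 0.01 to 0.09 for the mean, 11 to 49 and 0.10 to 0.16 for hCA-Notumor against DMH, 9 to 19 and -0.05 to 0.02 for hCA-Tumor against DMH, and 31 to 54 and 0.12 to 0.16 between the high calcium groups. Leaving out DMH array 1 gave the 49. Leaving out both DMH array 1 and hCA-Tumor array 3, an alternative chosen after seeing the data, gave counts of 30, 55 and 24 for the 3 comparisons with DMH in this order, with medians of 0.10 for the mean and 0.04 for hCA-Tumor. The replicate number as a block gave counts of 6, 19, 12 and 36; the deviations of same-numbered arrays correlated at -0.57 to 0.22, so the numbers do not pair the samples.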
